A study of Rattus norvegicus with 6 samples.

Results

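The laminin chains and integrin subunits are the genes that encode an epithelium's main attachment to its basement membrane, and they were examined in rat mammary tumors that arose in older or younger animals. Members were taken by gene symbol alone, as the numbered alpha, beta and gamma laminin chains and the numbered alpha and beta integrin subunits, without use of any measured value. This gave 31 of the 26195 named rows of the count table, of which 30 are described, made up of 10 laminin chains and 20 integrin subunits. Of these 30, 27 had enough counts to be tested (9 laminin chains and 18 integrin subunits), among 13139 genes tested in all. Lamc3, Itga10 and Itga2b were too low. The integrin alpha subunits that carry a letter in place of a number (Itgav, Itgal, Itgam, Itgax, Itgad and Itgae) lie outside the symbol rule and are described separately, except Itgae, which is listed in more than 1 row and was left out.

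Bulk RNA-seq was available for 6 mammary tumors of F344 rats, of which 3 formed the older group (102, 107 and 116) and 3 the younger group (157, 158 and 167). The labels number the tumors and do not state that each came from its own rat. Both groups had received DMBA, a chemical carcinogen, at 65 mg per kg by gavage together with a 50 mg pellet of MPA (medroxyprogesterone acetate, a progestin) made to release over 90 days. The older rats were obtained at 19 to 21 months of age and were 21 to 23 months old at DMBA treatment. The younger rats were obtained at 6 to 8 weeks and were 4 months old at treatment. No untreated mammary gland was analysed here. The paper describes the younger rats as virgin and does not state this for the older rats. The younger tumors were all of those that arose in that group, the older ones were picked for having enough tissue, and each gave a single library of whole tumor tissue. According to the paper, the younger rats came from a commercial supplier and the older ones from colonies of the National Institute on Aging. Age at treatment, age at tumor collection and source of the rats therefore moved together and cannot be told apart.

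Counts in named rows ran from 3394451 to 6383983 per tumor, so that 3 counts, taken as the floor, stood for between 0.530 and 1.03 CPM (each count relative to its library total, adjusted by edgeR's TMM factors). Intervals on counts and this floor cover counting error only. Markers of mammary epithelium were present in every tumor. The summed level of 5 luminal markers (Krt8, Krt18, Epcam, Cdh1 and Elf5) was 1418 to 1840 CPM in older and 1663 to 2037 CPM in younger tumors. The summed level of 7 myoepithelial markers (Krt5, Krt17, Tp63, Acta2, Myh11, Cnn1 and Oxtr) was 467 to 2779 CPM in older and 2012 to 2889 CPM in younger tumors, and was lowest in tumors 102 and 116. Krt14 and Krt19 were not analysed here. Across all genes tested, edgeR's quasi-likelihood F test called 0 genes (0% of 13139) at a Benjamini-Hochberg adjusted p under 0.05, the smallest adjusted p being 0.176. At an unadjusted p under 0.05, edgeR gave 696 genes higher (5.3%) and 432 genes lower (3.29%) in older tumors. DESeq2's Wald test, run as an alternative, called 326 of 13104 genes (2.49%).

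Laminins are secreted as trimers of 1 alpha, 1 beta and 1 gamma chain, and each trimer is named by the numbers of its chains. In the mammary gland they form, with collagen IV, nidogen and perlecan, the basement membrane on which myoepithelial cells and parts of the luminal cells rest. Integrins are dimers of an alpha and a beta subunit that span the cell membrane, bind laminin or other ligands outside the cell and are tied to the cytoskeleton inside it. Epithelial cells hold laminin through alpha3beta1, alpha6beta1 and alpha6beta4 integrin, the last of which sits in hemidesmosomes and is linked to keratin filaments. Leukocytes use other dimers, mostly those containing the beta2 or the beta7 subunit.

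None of these laminin chains and integrin subunits differed between older and younger tumors past the adjusted threshold in edgeR. At an unadjusted p under 0.05, Itga4, Itga8 and Itgb2 were higher and Lama3 was lower in older tumors. By DESeq2, 3 members passed an adjusted p of 0.05, namely Itga8, Itgb2 and Lama3. A second description is the lack of overlap, meaning that every older tumor lay on the same side of every younger one. It held for Itga4, Itga8 and Itgb2, which were higher, and for Lama3 and Lamb3, which were lower, while 6.51% of all genes tested were higher and 5.58% lower in this way. By sign alone 6 of 9 laminin chains were lower in older tumors, with a median log2 fold change of -0.65, whereas 9 of 18 integrin subunits were lower, with a median of 0.02. The median over all 13139 genes was -0.0039. Other scalings, filters and tests gave laminin medians from -0.73 to -0.53 and integrin medians from -0.06 to 0.01. The laminin median was -0.87 without tumor 107 and -0.24 without tumor 157, so single tumors set its size. Because the libraries are of whole tissue, fewer cells of a type and less RNA per cell cannot be told apart in any of these values. The p-values measure the spread between these tumors only, and with 3 tumors against 3 a two-sided exact permutation test of 1 gene reaches at best 0.1.

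**Figure D1:**
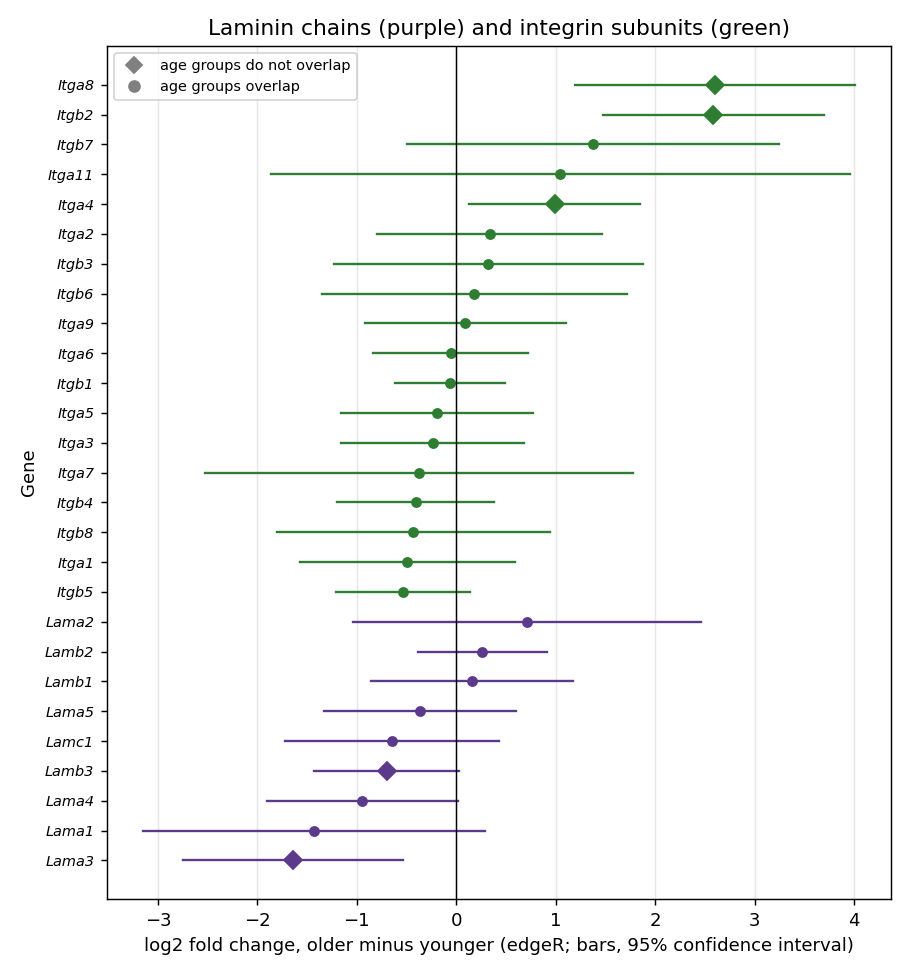
Log2 fold change, older minus younger, of 9 laminin chains and 18 integrin subunits tested with edgeR, with 95% confidence intervals as bars and the line at 0 marking no difference. The intervals of Lama3 (lower in older tumors) and of Itga4, Itga8 and Itgb2 (higher) leave out 0, and all others cross it.

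Lama3 and Lamb3 encode chains of laminin-332, the laminin of hemidesmosomes. Of the 9 laminin chains they were those whose age groups did not overlap, and their RefSeq promoter windows (assembly GRCr8, 250 bases before to 50 after an annotated start, plus strand) are shown for that reason. The Lama3 window, chr18:3952517-3952816, lies inside the bounds of the gene and so belongs to a transcript with an internal start. In it capitals mark the letters TGACTCA, the AP-1 motif, searched on both strands. In the Lamb3 window, chr13:107362303-107362602, capitals mark the letters CCAAT.
Lama3: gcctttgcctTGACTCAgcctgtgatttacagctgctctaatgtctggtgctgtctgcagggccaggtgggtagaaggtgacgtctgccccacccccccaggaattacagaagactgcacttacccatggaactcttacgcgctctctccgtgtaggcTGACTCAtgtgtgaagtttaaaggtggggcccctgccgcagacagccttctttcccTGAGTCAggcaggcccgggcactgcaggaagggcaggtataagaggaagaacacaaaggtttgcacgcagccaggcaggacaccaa
Lamb3: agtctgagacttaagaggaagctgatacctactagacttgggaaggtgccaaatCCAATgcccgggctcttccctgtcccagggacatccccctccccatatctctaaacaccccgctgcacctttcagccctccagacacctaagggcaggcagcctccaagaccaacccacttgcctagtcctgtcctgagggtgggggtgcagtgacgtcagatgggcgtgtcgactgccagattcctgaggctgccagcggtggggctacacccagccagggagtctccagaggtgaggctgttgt

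The Lama3 window held 3 matches to TGACTCA, which begin 240, 92 and 36 bases before the start, the last of them on the minus strand, where it reads TGAGTCA in the printed strand. Of all 33469 promoter windows of this length in the table, 4.63% hold at least 1 match to TGACTCA, and 3 windows hold 3 or more. Among the members, 24 of 30 have a window, and 1 of these 24, that of Lama3, holds the motif. The letters CCAAT occur in 5 of the 24 member windows and in 37.5% of all windows. The GC box GGGCGG occurs in 13 of the 24 against 33.1% of all windows, TATAAA in 2 against 14.2%, the Ets motif CCGGAAG in 2 against 8.75% and the GAS motif TTCNNNGAA in 3 against 8.87%. All these motifs were searched on both strands, and the windows printed above hold no match other than those in capitals. A match describes letters in a window and not the binding of a factor, which was not measured here.

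Lama3, the alpha chain that gives laminin-332 its contact with alpha3beta1 and alpha6beta4 integrin, stood at 61.6, 141 and 60.5 CPM in older tumors 102, 107 and 116, and at 309, 144 and 368 CPM in younger tumors 157, 158 and 167. The highest older tumor (107) and the lowest younger tumor (158) nearly touched, and the other 4 tumors lay far apart. The means were 87.6 ± 46.0 CPM (SD, n = 3) in older and 274 ± 116 CPM in younger tumors. This was a log2 fold change of -1.64 (SE, the standard error, 0.47; 95% interval -2.75 to -0.54), or 3.12-fold higher in younger tumors. The adjusted p was 0.359 in edgeR (unadjusted p = 0.00922) and 0.0439 in DESeq2. Leaving out each tumor in turn moved the log2 fold change between -2.16 and -1.37, and edgeR's unadjusted p stayed under 0.05 each time. With libraries scaled by their totals alone, tumors 107 and 158 overlapped.

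Lamb3, the beta chain found only in laminin-332, stood at 20.7, 44.8 and 37.4 CPM in older tumors and at 58.0, 55.9 and 53.8 CPM in younger ones. The younger tumors were close to each other and the older ones were spread below them. The log2 fold change was -0.70 (SE 0.31, 95% interval -1.43 to 0.03). In edgeR the unadjusted p was 0.0584 and the adjusted p 0.608, so Lamb3 missed both thresholds.

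The myoepithelial markers mark the cell layer that makes much of the gland's laminin, and they followed these chains only in part. Of the 7 markers in the table, 7 were lower in older tumors by sign, with a median log2 fold change of -0.71, and 0 had an unadjusted p under 0.05 in edgeR. Their summed level was 467 CPM in tumor 102, 2779 in tumor 107 and 820.0 in tumor 116, against 2889, 2012 and 2027 CPM in tumors 157, 158 and 167, so the groups overlapped through tumor 107. That tumor was also the highest older tumor for Lama3 and Lamb3, but both chains were lower there than in every younger tumor. Without tumor 107, 5 of the 7 markers were lower at an unadjusted p under 0.05 in edgeR, against 3.42% of all genes in that fit. Without tumor 158 it was 1 marker, and without each of the other 4 tumors it was 0. The part of myoepithelial content in the laminin values was not tested.

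**Figure D2:**
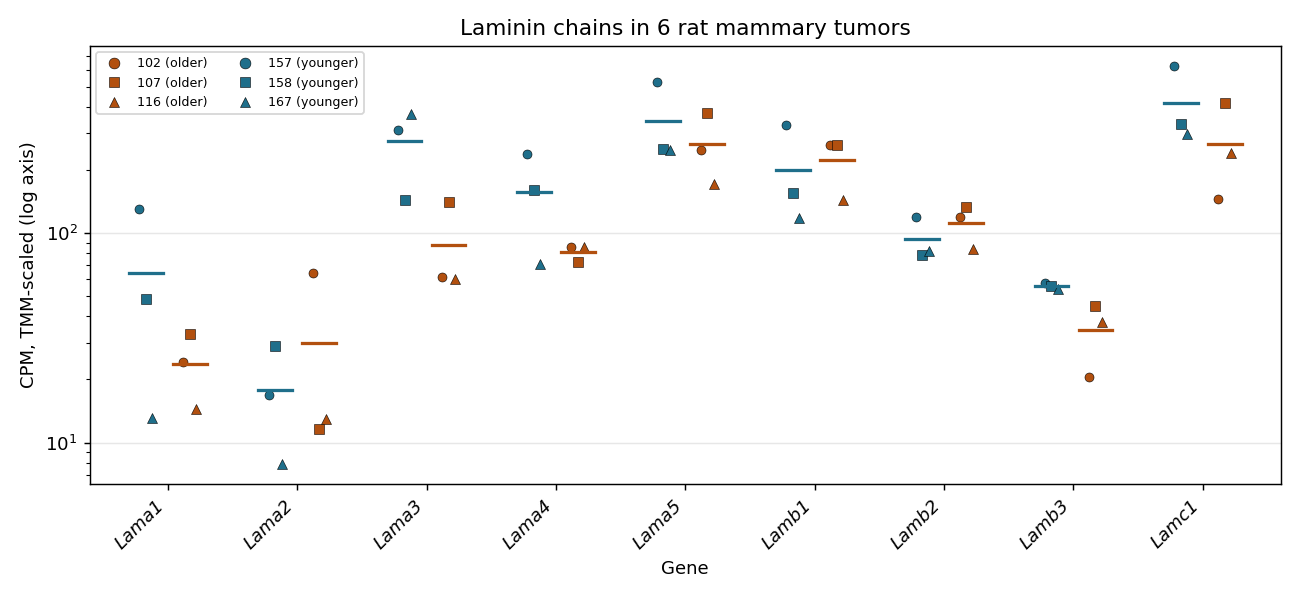
TMM-scaled CPM of each of 9 tested laminin chains in each of the 6 tumors on a log axis, 1 point per tumor, with the older and younger groups apart and the bars at the group means. Lama3 and Lamb3 are the chains whose groups do not overlap, and tumor 157 is the highest for 6 of the 9 chains.

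The other alpha chains differed less between the groups or varied more within them. Lama4, the alpha chain of vessel and fat basement membranes, was at 85.4, 72.7 and 86.1 CPM in older tumors and at 238, 159.9 and 71.3 CPM in younger tumors. The older tumors were close together, and younger tumor 167 lay just below them. The log2 fold change was -0.94 (SE 0.41, 95% interval -1.90 to 0.01, adjusted p = 0.588, edgeR). Lama1, the alpha chain of laminin-111, was at 24.1, 33.0 and 14.4 CPM in older and at 131, 48.7 and 13.1 CPM in younger tumors. Tumor 157 was high and tumor 167 was the lowest of all 6, and without tumor 157 its log2 fold change moved from -1.43 to -0.39. Lama5, the alpha chain of the epithelial laminins, ranged from 171 to 373 CPM in older and from 249 to 523 CPM in younger tumors, with a log2 fold change of -0.37 (SE 0.42). Lama2, the alpha chain best known from muscle and nerve, was at 64.7 CPM in tumor 102 and from 7.90 to 28.9 CPM in the other tumors. For Lama2 the log2 fold change was 0.72 with all tumors and -0.56 without tumor 102. Of the 5 alpha chains, 4 were lower in older tumors by sign.

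The beta1, beta2 and gamma1 chains, which are shared by many trimers, gave no separation. Lamb1 ranged from 143 to 263 CPM in older and from 118 to 328 CPM in younger tumors, with a log2 fold change of 0.15 (SE 0.44). Lamb2 ranged from 83.7 to 133 CPM and from 78.5 to 119.7 CPM, with a log2 fold change of 0.26 (SE 0.28). Lamc1 was at 145, 418 and 239.7 CPM in older and at 628, 333 and 296 CPM in younger tumors. Older tumor 107 lay above 2 of the 3 younger tumors, and the log2 fold change was -0.65 (SE 0.46, adjusted p = 0.814, edgeR). Lamc3, a minor gamma chain, had between 0 and 6 counts in a tumor and was not tested. The summed level of the 10 laminin chains was 1035, 1488 and 851 CPM in older tumors and 2351, 1255 and 1261 CPM in younger tumors, so the sums overlapped.

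Ratios of chains within a tumor do not depend on how libraries are scaled, and they were calculated as log2 ratios of counts, each with 0.5 added. The ratio of Lama3 to Lama5, the main epithelial alpha chains, was -2.02, -1.40 and -1.50 in older tumors and -0.76, -0.80 and 0.57 in younger tumors. All older tumors were below all younger ones, with a mean difference of -1.31. The ratio of Lamb3 to Lamb1 was -3.66, -2.54 and -1.93 in older tumors and -2.50, -1.47 and -1.13 in younger tumors. Here the difference was -1.01 and the groups overlapped through tumors 116 and 157. No p-value is given for the ratios because the chain pairs were chosen with earlier results of these data known.

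**Figure D3:**
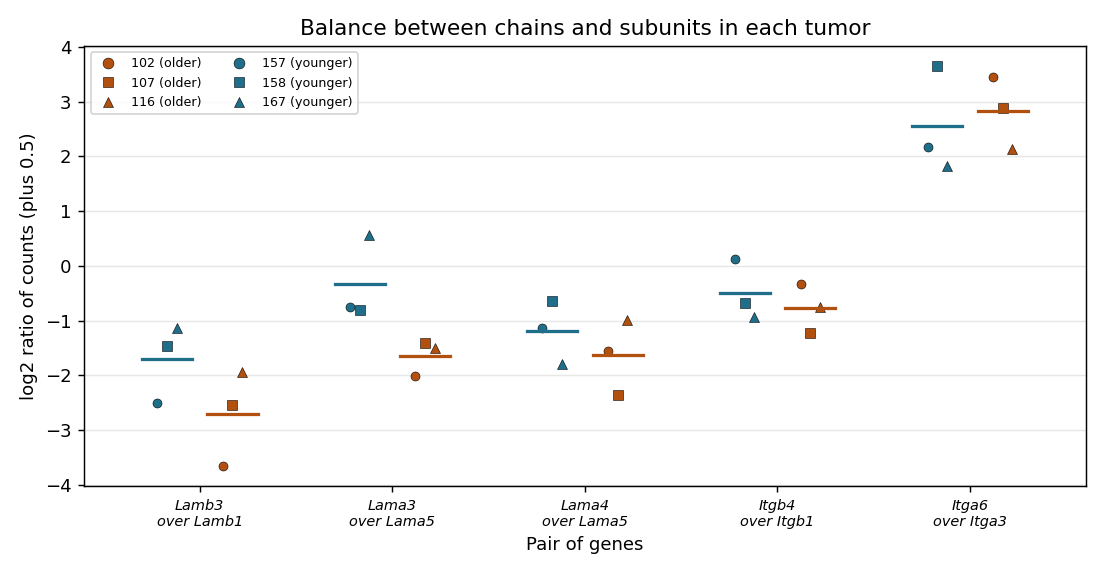
Log2 ratio of counts (plus 0.5) between pairs of laminin chains and pairs of integrin subunits in each tumor, 1 point per tumor, with bars at the group means. The ratio of Lama3 to Lama5 is below -1.3 in the 3 older tumors and above -0.9 in the 3 younger ones, and the other ratios overlap.

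The integrin subunits that bind laminin did not separate the groups. Itga6, the alpha subunit of both alpha6beta1 and alpha6beta4, was at 622, 666 and 598 CPM in older tumors and at 673, 879 and 410.0 CPM in younger tumors. The older tumors lay between the extremes of the younger ones. The log2 fold change was -0.06 with a 95% interval from -0.83 to 0.72 (adjusted p = 0.982, edgeR), and it was 0.02 by limma-voom. Itgb4, the hemidesmosome partner of Itga6, was at 248, 172 and 212 CPM in older and at 416, 220.2 and 203 CPM in younger tumors. Tumor 157 was the highest, and the other 5 tumors overlapped. For Itgb4 the log2 fold change was -0.41 with an interval from -1.20 to 0.38 (adjusted p = 0.85, edgeR). Itga3, the partner of beta1 in the main epithelial receptor for laminin-332 and laminin-511, ranged from 56.8 to 137 CPM in older and from 70.0 to 149 CPM in younger tumors, with a log2 fold change of -0.24 (SE 0.40). Itga7, known from muscle, had a log2 fold change of -0.38 with all tumors and of -2.06 without tumor 102, and it rested on 21, 6 and 2 counts in older and 24, 26 and 8 counts in younger tumors. Of the 4 laminin-binding subunits other than beta1, 4 were lower in older tumors by sign and 0 had an unadjusted p under 0.05 in edgeR.

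Itgb1, the beta subunit shared by most of these dimers, had the smallest standard error of the 27 members tested. It stood at 312, 403 and 359 CPM in older tumors and at 379.9, 354 and 389.8 CPM in younger tumors, and the groups overlapped. Its log2 fold change was -0.07 with a 95% interval from -0.62 to 0.49 (adjusted p = 0.975, edgeR). The intervals of Itga6, Itgb4 and Itga3 were wider. The ratio of Itgb4 to Itgb1 differed by -0.27 and that of Itga6 to Itga3 by 0.27 on the log2 scale, and in both the groups overlapped.

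The alpha subunits that bind collagen with beta1 varied within the groups. Itga1 ranged from 18.8 to 68.0 CPM in older and from 40.5 to 70.9 CPM in younger tumors (log2 fold change -0.49, SE 0.47), and Itga2 from 13.8 to 40.9 CPM and from 11.9 to 22.5 CPM (0.34, SE 0.49). In RefSeq the 2 genes are neighbors on rat chromosome 2. Itga11, a subunit of fibroblasts, was at 37.2, 0.909 and 8.81 CPM in older and at 14.5, 7.06 and 0.494 CPM in younger tumors, where tumors 107 (4 counts) and 167 (2 counts) lay at or near the floor. Its order resembled that of the summed fibroblast markers (Col1a1, Col1a2, Col3a1, Dcn, Pdgfra and Lum), which were 1308, 129 and 618 CPM in tumors 102, 107 and 116 and 1035, 1017 and 119 CPM in tumors 157, 158 and 167. Tumors 107 and 167 were lowest in both. Itga10 had between 1 and 13 counts in a tumor and was not tested.

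**Figure D4:**
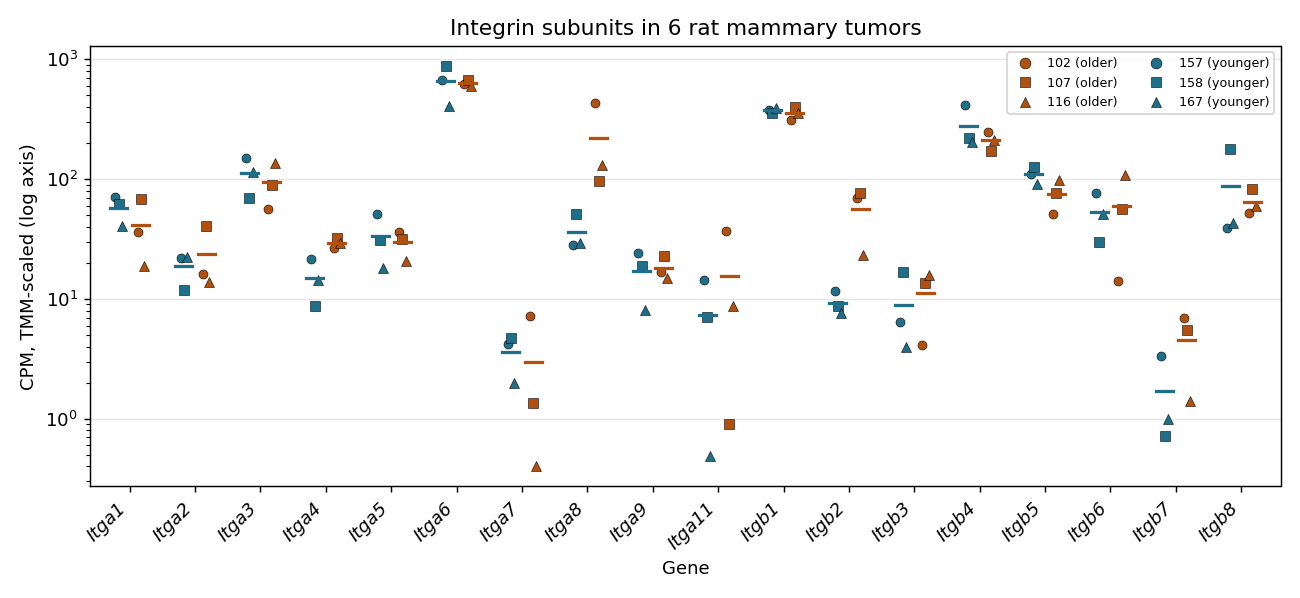
TMM-scaled CPM of each of the 18 tested integrin subunits in each of the 6 tumors on a log axis, 1 point per tumor, with the older and younger groups apart and bars at the group means. Itga4, Itga8 and Itgb2 are the tested subunits with all older tumors above all younger ones, and Itga6 and Itgb1 overlap.

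Among the integrins that bind the RGD sequence or activate TGF-beta, Itga8 stood apart. Itga8, which pairs with beta1 and binds nephronectin, was at 431, 96.4 and 130.4 CPM in older tumors and at 28.1, 50.8 and 29.1 CPM in younger tumors. Every older tumor was above every younger one, and tumor 102 was far above the rest. The means were 219 ± 184 CPM (SD, n = 3) in older and 36.0 ± 12.8 CPM in younger tumors. This was a log2 fold change of 2.60 (SE 0.60, 95% interval 1.19 to 4.01) or 6.07-fold. The adjusted p was 0.307 in edgeR (unadjusted p = 0.00294) and 0.0020 in DESeq2. Without tumor 102 the log2 fold change was 1.64, again with an unadjusted p under 0.05 in edgeR.

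The ligand nephronectin (Npnt) did not follow its receptor subunit. It was at 22.4, 109 and 136 CPM in older and at 94.2, 89.0 and 165 CPM in younger tumors, so that tumor 102, the highest for Itga8, was the lowest for Npnt. Tumor 102 also had the highest summed fibroblast markers (1308 CPM) and adipocyte markers (176 CPM, against 6.17 to 33.6 CPM in the other tumors). Itga8 is expressed in contractile stromal cells of several tissues. The summed pericyte markers (Rgs5, Pdgfrb, Cspg4, Notch3 and Kcnj8), 175 to 487 CPM in older and 275 to 492 CPM in younger tumors, overlapped, as did the fibroblast and myoepithelial sums, and their part in the Itga8 values was not tested.

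The remaining subunits of this kind did not separate the groups. Itgb5, a partner of Itgav, was at 51.0, 77.1 and 97.5 CPM in older and at 111, 126 and 91.6 CPM in younger tumors, with a log2 fold change of -0.54 (SE 0.29, unadjusted p = 0.102, adjusted p = 0.712, edgeR). Tumors 116 and 167 made the groups overlap. Itgb6, the epithelial subunit that activates TGF-beta with Itgav, ranged from 14.1 to 108 CPM in older and from 30.0 to 76.7 CPM in younger tumors, and Itgb8, which acts likewise, from 52.3 to 82.1 CPM and from 39.1 to 180.0 CPM. Itga5, the fibronectin receptor subunit, ranged from 20.8 to 36.1 CPM and from 18.3 to 51.4 CPM. Itgb3 ranged from 4.13 to 15.8 CPM and from 3.95 to 16.6 CPM. Itga9, which binds tenascin, had a log2 fold change of 0.09 (SE 0.43). Itga2b, the subunit of platelets, had 18, 12 and 6 counts in older and 10, 6 and 7 counts in younger tumors and was not tested, and the platelet markers Ppbp and Gp1bb were at 0 in all 6 tumors.

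The leukocyte subunits Itgb2, Itga4 and Itgb7 were higher in older tumors by sign, and 2 of these 3 separated the groups. Itgb2, the beta subunit of all beta2 integrins of leukocytes, was at 69.2, 76.6 and 23.4 CPM in older tumors and at 11.7, 8.68 and 7.65 CPM in younger tumors. Even the lowest older tumor (116) lay above the highest younger tumor (157). The means were 56.4 ± 28.8 CPM (SD, n = 3) in older and 9.34 ± 2.09 CPM in younger tumors. This was a log2 fold change of 2.59 (SE 0.48, 95% interval 1.47 to 3.70) or 6.00-fold. The adjusted p was 0.235 in edgeR (unadjusted p = 0.000755), the smallest among the members, and 0.000159 in DESeq2. Leaving out each tumor in turn gave log2 fold changes from 2.29 to 2.95.

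Itga4, which pairs with beta1 or beta7 and binds Vcam1 and fibronectin, was at 26.9, 32.3 and 29.4 CPM in older tumors and at 21.6, 8.68 and 14.3 CPM in younger tumors. The older tumors were close together and above all younger ones. The log2 fold change was 0.99 (SE 0.37, 95% interval 0.13 to 1.85), with an unadjusted p of 0.0291 and an adjusted p of 0.497 in edgeR. The unadjusted p no longer passed 0.05 with libraries scaled by totals or without tumor 107, 116, 158 or 167. Itgb7, the gut-homing partner of Itga4, was at 6.89, 5.45 and 1.40 CPM in older and at 3.36, 0.724 and 0.987 CPM in younger tumors, where 4 counts stood behind the values of tumors 158 and 167. For Itgb7 the log2 fold change was 1.38, with a standard error of 0.80 (adjusted p = 0.747, edgeR).

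The beta2 integrin partners outside the symbol rule were higher in older tumors as well. Itgam, the alpha subunit of macrophages and granulocytes, was at 66.4, 55.5 and 12.6 CPM in older and at 11.3, 6.33 and 3.70 CPM in younger tumors. For Itgam the log2 fold change was 2.63 (SE 0.67, adjusted p = 0.325, edgeR). Itgax and Itgad, both of macrophages and dendritic cells, also did not overlap between the groups, with log2 fold changes of 2.10 and 3.77. For Itgad tumor 107, at 37.05 CPM, was far above the other older tumors at 4.48 and 3.20 CPM. Itgal, the subunit of lymphocytes, was at 16.9 CPM in tumor 102 and at 16.97 CPM in tumor 157, so its groups overlapped. Of the 5 subunits of this list, 4 were higher at an unadjusted p under 0.05 in edgeR, against 5.3% of all genes tested. Of the same 5, 0 passed the adjusted threshold. The exception was Itgav, the partner of Itgb5, Itgb6 and Itgb8, with a log2 fold change of -0.52 (SE 0.34).

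Markers of leukocytes moved with these subunits. Each of the 6 macrophage markers (Cd68, Csf1r, Adgre1, Cd163, Mrc1 and C1qa) was higher in older tumors by sign. Of these, 4 had an unadjusted p under 0.05 in edgeR, while 5.3% of all genes tested were higher at that p. The summed level of the 6 markers was 174 to 318 CPM in older and 83.2 to 135 CPM in younger tumors, without overlap. Taken singly, Cd68, Csf1r and Adgre1 did not overlap between the groups, whereas Cd163, Mrc1 and C1qa did. The 4 T cell markers in the table (Cd3d, Cd3e, Cd3g and Cd8a) summed to 15.1 to 80.7 CPM in older and 4.34 to 8.13 CPM in younger tumors, also without overlap. Cd8a alone gave 74.6 of the 80.7 CPM in tumor 107. Cd8a and Cd3e each did not overlap between the groups. Cd3d and Cd3g were too low to be tested and did overlap, and Cd3d was at 0 in 2 tumors. The 5 adipocyte markers (Adipoq, Plin1, Cidec, Lep and Fabp4) summed to 20.02 to 176 CPM and 6.17 to 18.0 CPM, and this lack of overlap rested on Lep in tumor 107, which gave 25.002 of that tumor's 33.6 CPM. Without Lep, a sum added after seeing the data, tumor 107 was at 8.64 and tumor 157 at 18.0 CPM, and the groups overlapped. The 4 neutrophil markers (S100a8, S100a9, Csf3r and Mpo) were at or near 0, with sums of 0.689 to 2.50 CPM and 0.247 to 7.96 CPM, and none could be tested. The summed skeletal muscle markers Acta1, Ckm, Myh4, Tnnt3 and Tcap (6.01 to 54.8 CPM and 16.5 to 26.2 CPM) overlapped. The part of leukocyte content in the values of Itgb2, Itga4, Itgb7 and the beta2 partners was not tested.

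**Figure D5:**
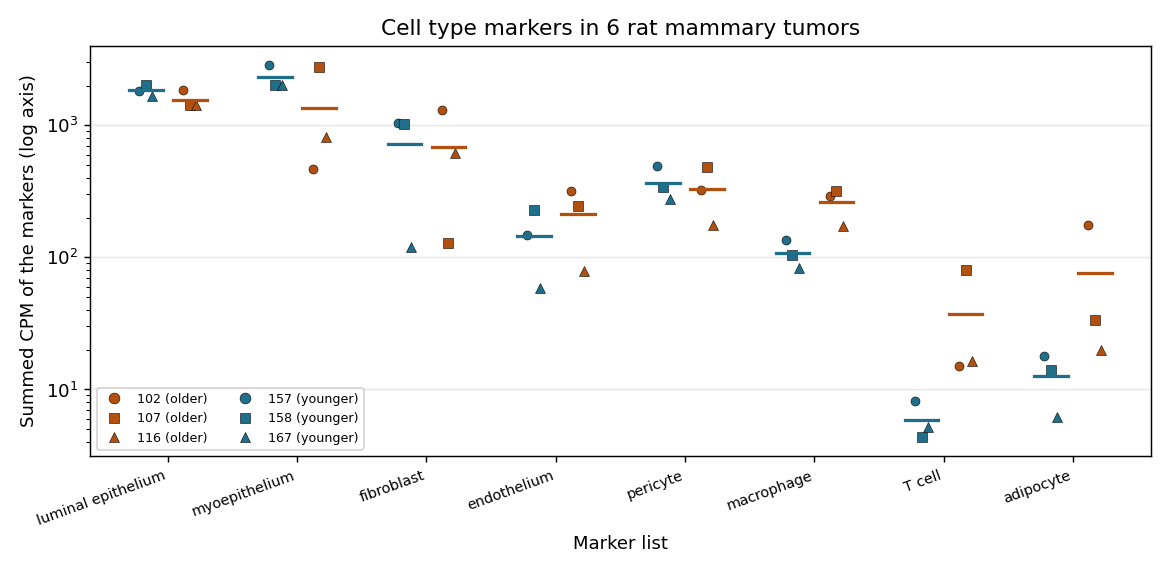
Summed TMM-scaled CPM of 8 cell type marker lists in each tumor on a log axis, 1 point per tumor, with older and younger tumors apart and bars at the group means. The macrophage, T cell and adipocyte sums are higher in all 3 older than in all 3 younger tumors (the adipocyte sum overlaps once Lep is left out), and the luminal, myoepithelial, fibroblast, endothelial and pericyte sums overlap.

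Of the 18 integrin subunits, 3 were thus higher without overlap, against 6.51% of all genes tested, and 3 had an unadjusted p under 0.05 in edgeR and were higher, against 5.3%. Of the 9 laminin chains, 2 were lower without overlap, against 5.58% of all genes, and 1 was lower at an unadjusted p under 0.05, against 3.29%. These counts are small, and they changed with the tumors included. Without tumor 107, 3 laminin chains (Lama3, Lamb3 and Lamc1) were lower at an unadjusted p under 0.05, against 3.42% of all genes in that fit. Without tumor 167 it was also 3 (Lama1, Lama3 and Lama4), against 3.72%. Tumor 157 had the highest level of 6 of the 9 chains tested, and tumor 167 the lowest of 4.

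Chains of a trimer and subunits of a dimer assemble with each other. Of such pairs, 8 were compared across the 6 tumors by correlation of log2 CPM. The tumors share the age contrast, and the values of 1 tumor share its library. Of the 8 pairs 7 had a positive Pearson's r. The r was 0.79 for Lama3 with Lamb3 (Spearman's rho 0.77), and 0.89 without the 2 tumors farthest from the median of Lama3 (116 and 167). Lama5 with Lamc1 had an r of 0.76, which became 0.02 without tumors 107 and 157, and Itga4 with Itgb7 an r of 0.75, which became 0.03 without tumors 158 and 167. The r of Itga6 with Itgb4, the hemidesmosome dimer, was 0.17. By two-sided exact permutation tests the smallest p was 0.0375, for the r of Lama3 with Lamb3. Both chains were lower in older tumors without overlap, so this r includes the age contrast, and its p does not test the pairing apart from it. After Benjamini-Hochberg adjustment 0 of the 8 passed 0.05 (smallest adjusted p = 0.219).

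The partners of laminin in the basement membrane were lower in older tumors by sign, without passing the adjusted threshold. Of 14 genes tested (Nid1, Nid2, Hspg2, Agrn, Col4a1 to Col4a6, Col15a1, Col18a1, Ntn4 and Sparc), 13 were lower by sign, against 6616 of all 13139. Their median log2 fold change was -0.94. In edgeR 2 were lower and 0 higher at an unadjusted p under 0.05, against 3.29% and 5.3% of all genes. The count of lower genes was 7 without tumor 107 (3.42% of all genes in that fit) and 4 without tumor 167 (3.72%). It was 0 without tumor 116, 157 or 158 (3.98%, 2.02% and 3.37%). Col4a5, a collagen IV chain, was at 9.30, 40.5 and 31.0 CPM in older and at 58.7, 72.2 and 64.7 CPM in younger tumors, without overlap. Its log2 fold change was -1.27 (SE 0.48, adjusted p = 0.504, edgeR). Sparc, a collagen-binding protein, was at 182, 511 and 328 CPM and at 757, 829 and 593 CPM, also without overlap, with a log2 fold change of -1.09 (SE 0.40, adjusted p = 0.492, edgeR). Col4a1, a main collagen IV chain, ranged from 162 to 1025 CPM in older and from 404 to 1422 CPM in younger tumors. Nid1, which joins laminin to collagen IV, and Hspg2, the core protein of perlecan, had log2 fold changes of -0.72 and -0.98, and the groups of both overlapped.

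Of 5 hemidesmosome partners (Col17a1, Dst, Plec, Cd151 and Col7a1), 0 had an unadjusted p under 0.05 in edgeR and 4 were lower by sign. Col17a1, the transmembrane collagen of hemidesmosomes, was at 57.5, 427 and 69.7 CPM in older and at 285, 211 and 74.8 CPM in younger tumors. Tumor 107 was the highest of all, as it was among older tumors for Lama3 and Lamb3. Of 5 laminin receptors that are not integrins (Dag1, Bcam, Rpsa, Sdc1 and Sdc4), 3 were lower and 2 higher by sign. At an unadjusted p under 0.05 in edgeR, 1 was lower and 0 higher, against 3.29% and 5.3% of all genes. This was Sdc1, an epithelial heparan sulfate proteoglycan, at 65.4, 106 and 108 CPM in older and at 271, 172 and 197 CPM in younger tumors. All older tumors were below all younger ones (5.58% of all genes), with a log2 fold change of -1.19 (SE 0.30, adjusted p = 0.315, edgeR). Sdc4 had a log2 fold change of 0.12, Bcam of -0.39 and Rpsa of -0.23, and the groups of each overlapped. The dystroglycan gene Dag1, the laminin receptor of muscle and epithelium, was at 1738 CPM in tumor 102 and from 452 to 760 CPM in the other 5.

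Of 10 tested ligands of integrins other than laminin (Fn1, Vtn, Spp1, Tnc, Npnt, Postn, Thbs1, Vcam1, Icam1 and Mfge8), 0 were lower and 1 was higher at an unadjusted p under 0.05 in edgeR (3.29% and 5.3% of all genes). This was Vcam1, a ligand of Itga4, at 82.3, 12.05 and 29.8 CPM in older and at 5.13, 3.44 and 1.23 CPM in younger tumors. For Vcam1 the log2 fold change was 3.62 (SE 0.80, adjusted p = 0.271, edgeR), and all older tumors were above all younger ones. Icam1, a ligand of beta2 integrins, had a log2 fold change of 0.35 (SE 0.56). Spp1, the gene of osteopontin, was at 123, 36.1 and 112 CPM and at 13.1, 58.3 and 7.65 CPM, with a log2 fold change of 1.77 (SE 0.79, adjusted p = 0.601, edgeR). Fn1, the gene of fibronectin, reached 1337 CPM in tumor 102 and lay between 41.0 and 308 CPM in the other tumors. The summed endothelial markers (Pecam1, Cdh5, Kdr, Tek, Tie1 and Emcn), 78.7 to 318 CPM in older and 58.3 to 231 CPM in younger tumors, overlapped. The macrophage sum, 174 to 318 CPM in older and 83.2 to 135 CPM in younger tumors, did not. The part of endothelial or macrophage content in the Vcam1 values was not tested.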

How the data were processed

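Bulk RNA-seq was measured in 6 rat mammary tumors, 3 older and 3 younger. The authors deposited 1 table of read counts per gene, not normalized. The sources name FastQC 0.11.7, Trimmomatic 0.38, STAR 2.7.9a, Picard 2.18.12, HTSeq 0.13.5 and the build mRatBN7.2. Annotation, strand setting and use of duplicates are not given in the sources used here, so reads shared by related or overlapping genes could not be traced. The labels state polyA RNA and 100 base reads, whereas the extraction text states rRNA depletion and reads of 150 bases.

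Rows without a name (4367 of 30562, 2.17 to 3.64% of counts) were left out. Counts were filtered with filterByExpr by age group, scaled by TMM and tested with edgeR 4.0.16 (quasi-likelihood F test, Benjamini-Hochberg over 13139 genes, threshold 0.05) in R 4.3.3. Standard errors were derived from F. A prior count of 2 was used for log2 CPM and a pseudocount of 0.5 for ratios. Correlations used two-sided exact permutation tests with Benjamini-Hochberg adjustment over 8 pairs. DESeq2 1.42.0, limma-voom (limma 3.58.1), other scalings and filters and leaving out each tumor were alternatives. The tests were run on simulated data first. Pairwise correlations showed no library deposited more than once. Of the 31 members 30 were described and 1 is not reported here. Other genes come from lists of partners and cell type markers, with 1 sum of adipocyte markers without Lep added after seeing the data. The members follow from the symbol rule, but this gene family and the lists were chosen with earlier results of these data known. RefSeq names and promoters are of GRCr8, and no other coordinates were used.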

Additional observations from a re-analysis of the deposited data

How the results depend on the processing

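No paired analysis was possible because the age groups share no replicate number. Of the 27 members tested, 13 kept the sign of their log2 fold change in every alternative that tested them, of 8 with all tumors and 6 without 1 tumor. With at least 10 counts in every tumor Itga7, Itga11 and Itgb7 were not tested. DESeq2 called 326 genes and 3 members against 0 by edgeR. At an unadjusted p under 0.05, 3 laminin chains were lower by DESeq2 (Lama1, Lama3 and Lama4) and 1 by edgeR. Of all genes tested, 4.08% were lower at that p by DESeq2 and 3.29% by edgeR. The count of laminin chains was 2 with library totals, limma-voom, at least 1 count in any tumor or at least 10 counts in every tumor. In those settings 2.69 to 3.17% of all genes were lower. With library totals 1 laminin chain (Lamb3) was lower without overlap, against 2, and the share of all genes for that scaling is not given here. Keeping the rows without a name, an alternative chosen after seeing the data, moved no member across a threshold among 14060 rows. By limma-voom Itga6 was at 0.016 and Itgb6 at -0.048. The correlation of Itga5 with Itgb1 was 0.012 with library totals, and without the 2 farthest tumors those of Lamb1 with Lamc1 and Lama4 with Lamc1 were -0.15 and -0.78. The cause was not tested. Of the 8 correlations, 0 passed 0.05 after adjustment, the smallest adjusted p being 0.219 (exact permutation test).

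Leaving out each tumor in turn gave 1 to 3 laminin chains and 0 to 2 integrin subunits lower at an unadjusted p under 0.05, and 2 to 4 integrin subunits higher. Without overlap it gave 2 to 4 laminin chains lower and 0 to 1 higher, and 0 to 2 integrin subunits lower and 3 to 5 higher. With fewer tumors a lack of overlap arises more easily by chance. These counts therefore cannot be set beside the shares without overlap given for all tumors. For these fits, the shares of all genes without overlap, and of those higher at that unadjusted p, are not given here. Listed partner genes lower at that p numbered 1 to 10, against 2.02 to 3.98% of all genes in those fits. The log2 fold changes that crossed 0 ran from -0.60 to 1.98 for Itga11, -0.32 to 0.61 for Itga2, -0.61 to 0.026 for Itga3, -0.49 to 0.25 for Itga5, -0.31 to 0.22 for Itga6, -2.06 to 0.18 for Itga7, -0.25 to 0.42 for Itga9, -0.16 to 0.019 for Itgb1, -0.030 to 1.13 for Itgb3, -0.57 to 0.64 for Itgb6, -0.79 to 0.67 for Itgb8, -0.56 to 1.25 for Lama2, -0.70 to 0.076 for Lama5 and -0.12 to 0.70 for Lamb1. Depth limited Lamc3, Itga10, Itga7 (2 counts in tumor 116), Itga11 (4 in tumor 107 and 2 in tumor 167) and Itgb7 (4 in tumors 158 and 167), which lay at or near the floor of 3 counts there.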

Other observations

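The adaptors that tie integrins to the actin cytoskeleton were described as a further group of 22 genes (Tln1, Tln2, Fermt1 to Fermt3, Ilk, Lims1, Lims2, Parva, Parvb, Parvg, Ptk2, Ptk2b, Pxn, Vcl, Zyx, Bcar1, Tns1 to Tns4 and Itgb1bp1). In older tumors 15 were higher by sign (14 with library totals), against 6523 of all 13139 genes tested. Their median log2 fold change was 0.26. In edgeR 4 were higher and 0 lower at an unadjusted p under 0.05, against 5.3% and 3.29% of all genes, and 0 passed the adjusted threshold. Parvg, the leukocyte parvin, was at 19.3, 35.2 and 13.6 CPM in older tumors 102, 107 and 116 and at 7.43, 5.25 and 6.42 CPM in younger tumors 157, 158 and 167. Its log2 fold change was 1.83 (standard error, SE, 0.43, adjusted p = 0.313, edgeR). Fermt3, the kindlin of blood cells, had a log2 fold change of 1.12 (SE 0.41, adjusted p = 0.484, edgeR), and tumors 116 and 157 made its groups overlap. The macrophage markers, which sum to 174 to 318 CPM in older and 83.2 to 135 CPM in younger tumors, moved with both, and their part was not tested.

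Parvb, a parvin found in many tissues, was at 37.5, 18.2 and 13.6 CPM in older and at 6.90, 8.503 and 5.43 CPM in younger tumors, without overlap (log2 fold change 1.72, SE 0.46, adjusted p = 0.341, edgeR). Tns4, a tensin of epithelial cells, was at 236.5, 123 and 74.3 CPM and at 58.9, 63.9 and 27.9 CPM, with a log2 fold change of 1.52 (SE 0.49, adjusted p = 0.408, edgeR). All older tumors were above all younger ones for Tns4. Talin (Tln1), the adaptor that activates most integrins, had a log2 fold change of 0.06, and focal adhesion kinase (Ptk2) of 0.20 with a standard error of 0.20. The groups of both overlapped.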
